A study of Mus musculus with 4 samples.

Results

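The gradient of gene expression between the central vein and the portal tract was followed within MASH liver, in the 2 MASH sections of a mouse liver series recorded with 10x Visium. A Visium slide carries an array of capture spots, and each spot takes up the RNA of several neighbouring cells. Spots were kept at 500 UMIs or more (UMIs are single captured transcripts) and were chosen by measured values of 12 genes: each spot received a zone score, log2 of a quotient. Its numerator was the UMIs of 6 periportal genes together plus 1 (Cyp2f2, Hal, Sds, Hsd17b13, Pck1 and Gls2) and its denominator those of 6 pericentral genes plus 1 (Cyp2e1, Glul, Oat, Gulo, Cyp1a2 and Slc1a2). The spots of each section were ranked by this score and divided into 10 equal bins, with bin 1 at the pericentral and bin 10 at the periportal end. In this way 4329 MASH spots of 8246 kept spots in the series entered, 2467 from MASH-1 and 1862 from MASH-2, with 246 or 247 spots per bin in MASH-1 and 186 or 187 in MASH-2. In MASH-1 3 spots fell under 500 UMIs (the deepest of these held 279, the shallowest kept spot 727), and in MASH-2 none did (shallowest spot 571). The MASH sections came from mice labelled MASH and fed a diet labelled WD for 16 weeks. The 2 MAFL sections, used below for comparison, came from mice labelled MAFL on the same diet for 8 weeks and gave 3917 spots. The labels give model and weeks of diet together, name no strain, sex or age, and leave unstated whether a group's 2 sections are from different animals, so p-values measure only the spread between these sections, which may be technical.

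Hepatocytes divide their work along the path of the blood from the portal tract to the central vein. Periportal hepatocytes, which meet oxygen-rich blood first, are known for urea synthesis, gluconeogenesis and the secretion of plasma proteins. Pericentral hepatocytes are known for glutamine synthesis, bile acid synthesis and cytochrome P450 metabolism, under Wnt ligands from the endothelium of the central vein. In fatty liver disease the zones of the lobule can differ in fat storage, inflammation and scarring. Ranks say nothing of distance: spot positions were not used, and a bin collects spots from many lobules.

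The 12 score genes chose the bins, and their levels are given as a description without a test. Levels are in CPM, a gene's UMIs in a bin scaled to a common total of UMIs. For score genes this total holds all UMIs of the bin. For all other genes it holds the UMIs of tested genes, adjusted by edgeR's TMM factor of each bin. These factors went from 1.10 in bin 1 to 0.94 in bin 10 of MASH-2, and lay between 0.95 and 0.97 in MASH-1. Such CPM therefore differ from plain shares of UMIs. Among the pericentral score genes the ammonia-fixing enzyme Glul fell within the first bins, with 1213, 686, 429, 221 and 72.6 CPM in bins 1, 2, 3, 5 and 10 of MASH-1 and 1224, 803, 505, 235 and 80.3 CPM in those of MASH-2. The glutamate transporter Slc1a2 had the same early step, from 288 to 86.4 and 15.9 CPM in bins 1, 3 and 10 of MASH-1 and from 221 to 81.0 and 7.15 CPM in MASH-2. The ethanol- and drug-oxidising enzyme Cyp2e1 instead stayed high as far as the middle bins, with 11224, 9209, 3594 and 1297 CPM in bins 1, 5, 8 and 10 of MASH-1 and 12183, 8029, 2727 and 829.9 CPM in MASH-2. On the periportal side Cyp2f2, a cytochrome P450, climbed from 312 to 1361 CPM in MASH-1 and from 422 to 2062 CPM in MASH-2. Pck1, the first committed enzyme of gluconeogenesis, had the flattest climb of the periportal genes, from 828 to 1959 and from 940.0 to 1923 CPM. So the genes used for ranking already had unlike shapes, a narrow pericentral step for some and a broad plateau for others. Alb, the main transcript of hepatocytes, was high in all bins (35857 CPM or more in MASH-1, 30981 or more in MASH-2), in keeping with the labelled tissue.

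Depth rose with the score in the MASH sections. The median UMIs per spot went from 18539 in bin 1 to 36041.5 in bin 10 of MASH-1 and from 15048 to 47572 in MASH-2, and the median number of genes from 3597 to 4961.5 and from 3411 to 5508.5. Mitochondrial transcripts took 4.79% of UMIs in bin 1 and 2.60% in bin 10 of MASH-1, and 5.54 and 3.78% in MASH-2. Haemoglobin transcripts took between 0.268 and 0.607% of UMIs in MASH-1 bins and between 0.0721 and 0.272% in MASH-2 bins. The part of depth in the profiles below was not tested as a cause. Values from spots ranked by score within 5 bins of total UMIs are given for some results, and others can shift too. The same 1594 barcodes occur in both MASH sections, as Visium barcodes name slide positions.

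**Figure D1:**
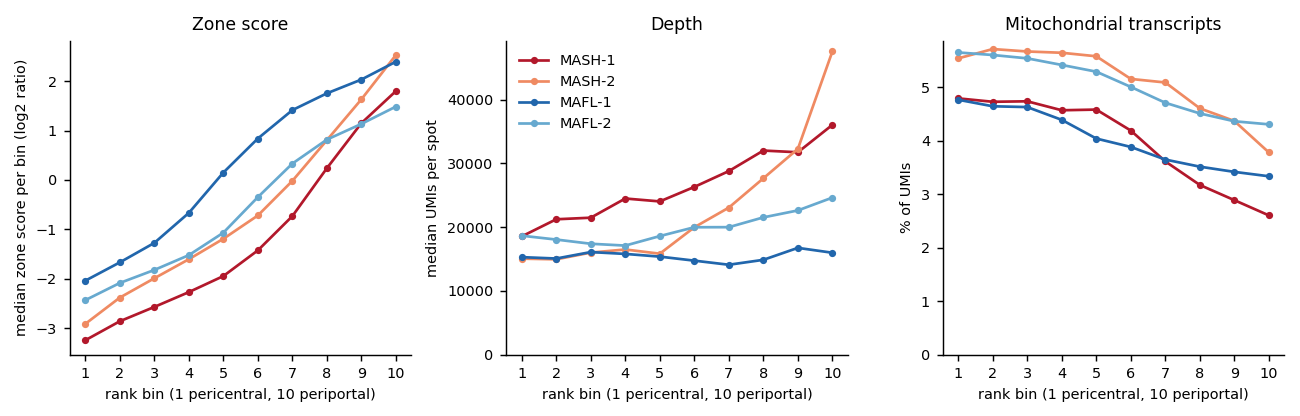
Median zone score (log2 ratio, left), median UMIs per spot (middle) and share of UMIs from mitochondrial genes (right) in each of 10 rank bins, for 2 MASH and 2 MAFL sections; each point is 1 bin of 1 section. The score climbs by rank by construction, depth climbs to 36041.5 and 47572 UMIs in bin 10 of the MASH sections, and the mitochondrial share is lower in bin 10 than in bin 1 of each section.

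Outside the score, many genes followed the axis and fewer bent along it. UMIs were summed per bin and section, and the 20 sums were fitted with edgeR's quasi-likelihood test, with the section as a block. The linear trend is the fitted straight change from bin 1 to bin 10 on the log2 scale, and the bow is the fitted level of bins 5 and 6 above that of bins 1 and 10, also in log2. Of 11728 tested genes 1614 (13.8%) had a trend rising and 1713 (14.6%) a trend falling toward the periportal end at an adjusted p of 0.05. Bows were called with the middle above the ends for 161 genes (1.37%) and below the ends for 112 (0.955%), and 1778 genes (15.2%) differed between bins in any way. Of 3327 called trends 3283 had the same sign in both sections, as had all 273 called bows. The fit that made the calls used both sections, so calling itself favours equal signs and this agreement is no separate support. Bins of a section are not independent samples, and with 1 value per section in limma 1981 trends and 204 bows were called, of which 1949 and 155 were shared with edgeR.

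Most called profiles were straight on the log2 scale. Of the called genes 1525 rose and 1582 fell without a called bow, with a median trend of 0.44 and -0.48. Only 620 trends reached 1 in size (2-fold over the axis), 286 rising and 334 falling. Bowed gradients were fewer, and their steeper end is the one on the log2 scale. Of these, 14 rises and 7 falls were steeper at the pericentral end, and 17 rises and 75 falls at the periportal end. On linear CPM 94 of these 113 bows kept their sign and 36 passed. Within bins of total UMIs 109 kept it and 27 passed. A turning point between bins 3 and 8 was found for 160 genes, 72 with a maximum and 88 with a minimum in the middle. The correlation of a gene's 10 bins between the 2 sections had a median of 0.71 for genes with a middle maximum, 0.75 for those with a middle minimum, 0.59 for all genes with a called trend and 0.02 for genes with neither call, given as a description since neighbouring bins share the ranking.

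The direction split and the bows depended on scale. With library totals in place of TMM factors 1015 trends rose and 2394 fell, and the median trend of all genes moved from 0.00 to -0.09. On linear CPM 56 bows lay above and 155 below the ends. Ranking within bins of total UMIs left 63 called bows, 53 of them shared. Bows by single section were 518 in a fit without MASH-2 and 307 without MASH-1, sharing 190 and 119 with the fit of both.

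**Figure D2:**
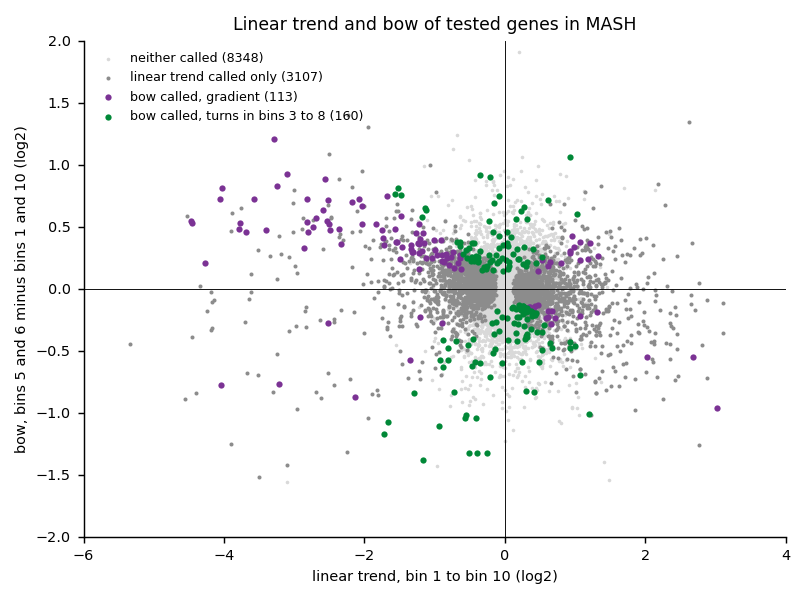
Linear trend from bin 1 to bin 10 (log2, x axis) against bow (log2, y axis), 1 point per tested gene in MASH; 11723 genes lie within the axes and 5 outside. Purple points (113) have a called bow on a gradient, green points (160) a called bow that turns in bins 3 to 8; of the purple falls 75 lie above 0 on the y axis and 7 below.

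The 10 steepest named rises were those of Aldh1b1, Etnppl, Spp1, Tstd1, Hsd17b6, Gldc, Serpina1e, Sdsl, Sfxn1 and Mt1, and Spp1 is described further below. Aldh1b1, a mitochondrial aldehyde dehydrogenase, stood at 35.3, 40.2, 111 and 270.3 CPM in bins 1, 5, 8 and 10 of MASH-1 and at 26.2, 62.7, 116 and 219.8 CPM in MASH-2. It stayed near its pericentral level to the middle of MASH-1 and climbed afterwards, while MASH-2 had gained by bin 5, with a trend of 2.88 (SE 0.18, adjusted p = 8.4e-07). Gldc, the glycine-cleaving decarboxylase, climbed through the axis, at 29.4, 52.8, 99.4 and 135 CPM in bins 2, 5, 8 and 10 of MASH-1 and 29.0, 50.3, 74.5 and 107 CPM in MASH-2 (trend 2.15, SE 0.08, adjusted p = 1.6e-28). Every bin 8 and 10 value of Gldc lay above every bin 2 and 5 value. The phospholyase Etnppl (trend 2.65), the hydroxysteroid dehydrogenase Hsd17b6 (2.31), the sulfurtransferase-related Tstd1 (2.35), the serine dehydratase relative Sdsl (1.98) and the mitochondrial serine carrier Sfxn1 (1.96) rose as well. The metal-binding Mt1 went from 348 to 1259 CPM in MASH-1 and from 262 to 913 CPM in MASH-2 between bins 1 and 10 (trend 1.91). The α1-antitrypsin gene Serpina1e, which has near-identical copies that can share reads, had a trend of 2.02 and is taken up again below. Of 18 listed periportal hepatocyte genes outside the score 16 rose and 1 fell, against 13.8 and 14.6% of all tested genes, with a median trend of 1.07 (median of all genes 0.00).

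Urea synthesis and plasma protein genes rose in a graded way. Of 10 urea cycle and ammonia genes 5 rose and 2 fell, where 13.8% of all genes rose and 14.6% fell, and the other lists here are read against the same shares. Arg1, the arginase that releases urea, stood at 387 CPM in bin 1 and 1072 in bin 10 of MASH-1, and at 379.9 and 979.5 CPM in MASH-2 (trend 1.32, SE 0.05). The argininosuccinate enzymes Ass1 and Asl had trends of 0.92 and 0.93. The ammonium channel Rhbg of the same list fell, with a trend of -3.21. In gluconeogenesis and amino acid breakdown 11 of 16 genes rose and 2 fell, among the rises the histidine-pathway enzymes Ftcd (1.03) and Uroc1 (1.07) and the aspartate aminotransferase Got1 (1.13). Of 21 complement and coagulation genes 15 rose and 2 fell, and of 14 acute phase genes 13 rose and 0 fell (median trends 0.37 and 0.56). The haem scavenger Hpx went from 3609.9 to 6459.7 CPM in MASH-1 and from 4465 to 9880.1 CPM in MASH-2 (trend 0.97), and the complement regulator Cfi from 363 to 659 and from 319.6 to 721 CPM (trend 0.97). Alb itself rose by 1.31 (SE 0.05), which with 1 value per section in limma did not pass (adjusted p = 0.096).

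Drug-metabolising and Wnt-dependent genes marked the pericentral end, and the steepest named falls were larger on the log2 scale than the steepest named rise. The cytochrome P450 gene Cyp2a5 stood at 2319, 1334, 737 and 125 CPM in bins 1, 3, 5 and 10 of MASH-1 and at 1099.9, 545, 316 and 58.1 CPM in MASH-2. It fell from each bin to the next in both sections, with a fitted 19.2-fold change (trend -4.27, SE 0.06, adjusted p = 2.1e-47). The phosphatase Lhpp fell as far, from 210.0 to 12.9 CPM in MASH-1 and from 116 to 7.31 CPM in MASH-2 (trend -4.25). The secreted factor Lect2 went from 354 to 28.2 and from 269.8 to 22.8 CPM (trend -3.40, SE 0.06). For the adipsin gene Cfd the sections differed in level, with 894 and 90.3 CPM in bins 1 and 10 of MASH-1 and 77.4 and 4.46 CPM in MASH-2 (section trends -3.64 and -4.26). The Cyp2c genes Cyp2c37, Cyp2c38 and Cyp2c29, close relatives that can share reads, had trends of -3.78, -3.69 and -3.57. The thyroxine carrier Serpina7 (-3.22) and the tropomyosin Tpm2 (-2.86) fell as well. All 20 listed pericentral hepatocyte genes outside the score fell (median trend -2.35), and 19 of 20 cytochrome P450 and conjugation genes fell with 0 rising (median -1.47), against 14.6% of all genes.

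Of 11 Wnt target and feedback genes 10 fell and 1, the cyclin Ccnd1, rose (trend 1.21), against 14.6 and 13.8% of all genes. In 9 of the 11 the bins differed in any way, against 15.2%. This list shares members, Tbx3 and Rhbg among them, with the pericentral hepatocyte list above, so the counts are not separate observations. The Wnt-induced transcription factor Tbx3 stood at 36.9, 30.4, 18.6 and 3.75 CPM in bins 1, 3, 5 and 10 of MASH-1 and 34.0, 21.5, 11.5 and 2.11 CPM in MASH-2 (trend -3.90). The Wnt inhibitor Notum fell less steeply (trend -2.51). Sp5, a transcriptional repressor among direct Wnt targets, held 10.2 CPM in bin 1 and 4.68 in bin 3 of MASH-1, and 8.72 and 2.06 CPM in MASH-2 (trend -4.41, SE 0.35).

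The TCF/LEF motif CTTTGAT, through which Wnt signalling acts on genes, was searched on both strands (ATCAAAG on the other) in the 250 bases before the start of each tested gene, using RefSeq promoter windows on GRCm38.p6. Of 9314 genes with a window 222 (2.38%) held it, of 250 called genes with a trend of -1 or less 14 (5.6%), of 77 with a trend of -2 or less 6 (7.79%), and of 196 with a trend of 1 or more 5 (2.55%). Among 14 named pericentral and Wnt genes 9 had a window, and 3 of these held the motif. Their upstream sequences are shown because they belong to the steep pericentral falls, with the motif in capitals, 5′ to 3′ on the gene's strand.
Lect2: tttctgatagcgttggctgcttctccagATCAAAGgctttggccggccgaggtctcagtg
Cyp2c29: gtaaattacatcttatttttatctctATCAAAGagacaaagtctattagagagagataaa
Sp5: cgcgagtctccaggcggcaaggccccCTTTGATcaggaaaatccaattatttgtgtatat
The 60 bases shown for Lect2 lie at chr13:56548539-56548598 on the minus strand, those for Cyp2c29 at chr19:39286940-39286999 and those for Sp5 at chr2:70474793-70474852, both on the plus strand. The motif begins 32, 119 and 104 bases before the annotated start of Lect2, Cyp2c29 and Sp5. A match describes these letters only. Cyp2a5, Cyp2c37, Cyp2c38, Cfd, Serpina7 and Tpm2 had no match in their windows.

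**Figure D3:**
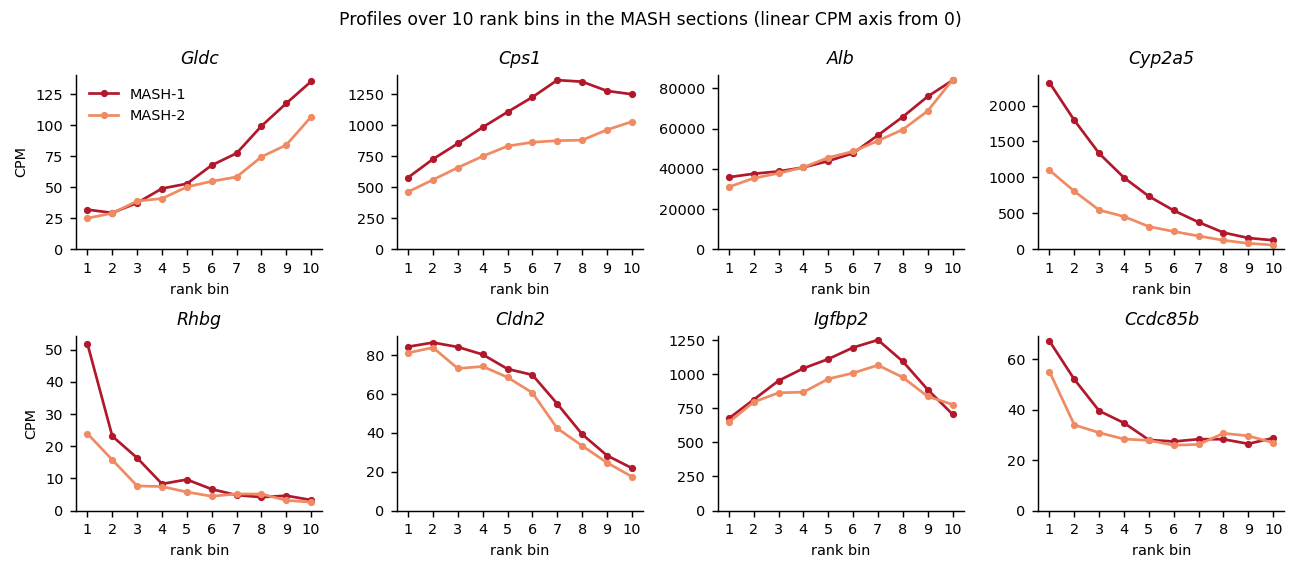
Levels in CPM (y axis, from 0) over 10 rank bins (x axis, 1 pericentral, 10 periportal) for 8 genes, 1 line per MASH section. Gldc climbs throughout, Cps1 flattens after bin 7 in MASH-1, Alb steepens after bin 6, Cyp2a5 falls throughout, Rhbg drops within the first 3 bins, Cldn2 holds until the middle and then falls, Igfbp2 peaks in bin 7 and Ccdc85b has left its bin 1 level by bin 3.

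Bowed gradients separated plateau genes from end-bound genes. Among rises that were steeper at the pericentral end was Cps1, the entry enzyme of the urea cycle, with 579, 854, 1229, 1354 and 1252 CPM in bins 1, 3, 6, 8 and 10 of MASH-1 and 463, 659, 864, 881 and 1030.4 CPM in MASH-2. It reached its plateau before the periportal end in MASH-1, while MASH-2 gained again in the last bins (bow 0.38, SE 0.04, adjusted p = 3.1e-08). The terminal complement component C9 had the same kind of bow (0.37), from 111 through 275 to 253 CPM in bins 1, 8 and 10 of MASH-1 and from 181 through 389 to 418 CPM in MASH-2. Arg1 (0.27) and the asparaginase Aspg (0.24) followed. The bow of Aspg was 0.14 within bins of total UMIs (adjusted p = 0.406), and on linear CPM those of C9 (adjusted p = 0.0502), Arg1 (0.316) and Aspg (0.552) did not pass. Rises steeper at the periportal end included Alb (bow -0.19), the selenium-binding Selenbp2 (-0.22) and Serpina1e (-0.55). Serpina1e stood at 513, 511, 668, 1202 and 2062 CPM in MASH-1 and 181, 255, 326, 433 and 918 CPM in MASH-2, so the step came between bins 6 and 10. Within bins of total UMIs none of these 3 bows passed, and those of Alb and Selenbp2 were 0.03 and 0.00.

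Falls had both shapes. The tight junction gene Cldn2 held a plateau, with 84.5, 84.3, 70.0, 39.3 and 21.9 CPM in bins 1, 3, 6, 8 and 10 of MASH-1 and 81.3, 73.3, 60.7, 33.4 and 17.5 CPM in MASH-2 (bow 0.72, SE 0.06, adjusted p = 4.5e-12). The sulfotransferase Sult2a8 stayed between 563 and 595 CPM in bins 1, 3 and 6 of MASH-1 and reached 216 CPM in bin 10, while in MASH-2 it had left its level of 437 CPM by bin 6 (326 CPM) and ended at 93.6 CPM (bow 0.75). Cyp2c50 (0.72), Cidea (0.73) and Cyp7a1, which sets the rate of bile acid production (0.66), had the same bow on the log2 scale. On linear CPM, relative to the mean level, that of Cidea was -0.14 (adjusted p = 0.877) and that of Cyp2c50 0.09 (0.623), and neither passed. Within bins of total UMIs that of Cidea was 0.55 and did not pass (adjusted p = 0.201). With 5 bins that of Sult2a8 was 0.60 and did not pass (adjusted p = 0.427). The opposite, a step at the pericentral end, was seen for Rhbg, with 51.9, 16.4, 6.64 and 3.27 CPM in bins 1, 3, 6 and 10 of MASH-1 and 23.9, 7.65, 4.44 and 2.60 CPM in MASH-2 (bow -0.77, adjusted p = 0.00518). The fatty acid carrier Fabp4 (-0.58), the glutathione transferase Gstm2 (-0.28) and the endothelial receptor Eng (-0.23) shared it. With 1 value per section in limma those of Gstm2 (adjusted p = 0.0884) and Eng (0.0698) did not pass, nor did they within bins of total UMIs (0.776 and 0.437).

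Igfbp2, a binding protein of insulin-like growth factors, had the largest called middle maximum among the genes meeting the naming rule. It stood at 676, 952, 1111, 1196, 1094 and 706 CPM in bins 1, 3, 5, 6, 8 and 10 of MASH-1 and at 647, 864, 966, 1009, 977 and 778 CPM in MASH-2. Both ends lay below every middle value in both sections (bow 0.63, SE 0.04, adjusted p = 2.1e-14). Within bins of total UMIs its bow was 0.40 and still passed, while its small trend of 0.22 turned to -0.18. The carboxylesterase Ces1e was alike, with 253, 325, 337 and 242 CPM in bins 1, 5, 6 and 10 of MASH-1 and 178, 273, 245 and 227 CPM in MASH-2 (bow 0.41). The iron hormone Hamp peaked in the middle of MASH-1, with 615, 945 and 726 CPM in bins 1, 6 and 10, and was at 1155, 1656 and 1799.7 CPM in MASH-2, where bin 10 was the highest of these (bow 0.32). Of 6 listed midlobular genes 4 rose, 1 fell and 3 had a called bow with the middle above the ends, against 1.37% of all genes.

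Of the 8 named middle maxima 4 were genes known from resident liver macrophages. The scavenger receptor Marco stood at 27.9, 43.4, 58.4, 75.2 and 63.5 CPM in bins 1, 3, 5, 8 and 10 of MASH-1 and 11.5, 23.0, 25.7, 20.2 and 19.2 CPM in MASH-2 (bow 0.60, SE 0.11). The folate receptor Folr2 (0.46), the complement activator properdin, Cfp (0.45), and the ficolin Fcna (0.43) followed. For Cfp the lowest and middle values were 34.5 in bin 10 and 48.7 CPM in bin 6 of MASH-1, and 39.2 and 65.1 CPM in bins 10 and 5 of MASH-2. The non-coding Hectd2os (0.58) and Ildr2 (0.38) had bows on falling profiles. Within bins of total UMIs the bows of Marco (0.48, adjusted p = 0.569), Fcna (0.38, 0.0808), Hectd2os (0.27, 0.127) and Ildr2 (0.25, 0.328) did not pass. Fcna also did not pass with library totals (0.148) or with a mean z-score as the zone score (0.326). Nor did it pass for any difference between bins (0.319). Marco did not pass with the z-score (0.159) or on linear CPM (0.179). The correlation between sections was 0.74 for Marco, 0.60 for Cfp, 0.35 for Folr2 and 0.27 for Fcna. All 72 middle maxima kept their sign within bins of total UMIs, and 14 of them passed. On linear CPM 36 of the 72 passed.

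Minima of the fitted curve covered genes that were high at 1 end and level elsewhere as well as genes that were lower in the middle than at either end. Ccdc85b stood at 67.3, 39.5, 28.0, 28.3 and 28.8 CPM in bins 1, 3, 5, 8 and 10 of MASH-1 and at 55.2, 30.9, 27.9, 30.7 and 26.9 CPM in MASH-2, so it was high in bin 1 and nearly level from bin 5 (bow -0.57, SE 0.08, adjusted p = 2.3e-06). Nnmt, which methylates nicotinamide, was lowest in bin 3 among bins 1, 3, 6 and 10 of MASH-1 (44.6, 32.7, 35.2 and 78.2 CPM), while MASH-2 had 63.6, 64.4, 85.9 and 149 CPM, lowest in bin 1 (bow -0.43). The growth factor receptor Fgfr3 (-0.47), Mfge8, a secreted protein that bridges dying cells and phagocytes (-0.48), the AP-1 factor Junb (-0.48) and the nucleolar Mybbp1a (-0.42) had minima too. For Fgfr3, Mfge8, Nnmt and Junb the periportal end was the higher one by the fitted trend (0.99, 0.93, 0.93 and 0.66). Without MASH-1 the bow of Fgfr3 was -0.12 (adjusted p = 0.837). Ranked within bins of total UMIs the bows of Fgfr3 (-0.27, adjusted p = 0.74), Mfge8 (-0.20, 0.721), Junb (-0.20, 0.826), Nnmt (-0.18, 0.711) and Mybbp1a (-0.18, 0.566) did not pass. All 88 minima kept their sign within bins of total UMIs and 12 passed, and on linear CPM 72 passed.

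Lipid genes divided along the axis. Of 16 lipid droplet genes 10 fell and 0 rose (median trend -0.38), against 14.6 and 13.8% of all genes, and 5 had a bow with the middle above the ends, against 1.37%. The summed level of this list went opposite ways in the 2 sections. It was 10721 CPM in bin 1 and 11401 in bin 10 of MASH-1, and 10175 and 9141 CPM in MASH-2. Cidea, which enlarges lipid droplets by fusion, stood at 118, 77.8, 46.0 and 9.56 CPM in bins 1, 4, 6 and 10 of MASH-1 and at 34.6, 30.4, 12.3 and 2.35 CPM in MASH-2 (trend -4.06, SE 0.11). The droplet biogenesis gene Fitm1 (-2.73), the droplet coat gene Plin4 (-1.57) and the monoglyceride lipase Mgll (-0.79) fell less. In fatty acid synthesis 6 of 18 genes rose and 5 fell. Acly, which makes cytosolic acetyl-CoA, rose from 45.5 to 106 CPM and from 40.5 to 88.5 CPM in bins 1 and 10 (trend 1.21). The desaturase Scd1 was highest before the middle, with 10140.3, 11437, 10991 and 7483 CPM in bins 1, 3, 6 and 10 of MASH-1 and 6077, 6914, 6870.1 and 5545 CPM in MASH-2 (trend -0.36, bow 0.30, SE 0.04). Its trend did not pass with 1 value per section in limma (adjusted p = 0.425). Read against the same shares, fatty acid oxidation and ketone body genes fell in 9 of 20 and rose in 5, with the acyl-CoA thioesterase Acot1 at a trend of -1.18 and the lipid-sensing receptor Ppara at -1.21. Bile acid genes fell in 9 of 15 and rose in 2, led by Cyp7a1 (-2.04) and the uptake carrier Slco1b2 (-1.54). Of 17 cholesterol synthesis and uptake genes 7 rose and 2 fell, and among 17 glutathione genes 9 fell and 5 rose.

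Mitochondrial and nuclear genes of respiration went opposite ways. All 13 mitochondrially encoded genes fell, against 14.6% of all genes (median trend -0.73, -0.99 in MASH-1 and -0.43 in MASH-2), and 4 had a bow with the middle above the ends, against 1.37%. Their summed level was 50188 CPM in bin 1, 48753 in bin 5 and 27501 in bin 10 of MASH-1, and 51324, 53548 and 40599.7 CPM in the same bins of MASH-2. So it held to the middle bins and fell at the periportal end. Of 16 nuclear oxidative phosphorylation genes 11 rose and 0 fell, against 13.8 and 14.6% (median trend 0.22), for example cytochrome c, Cycs, from 141 to 199 CPM and from 144 to 212 CPM (trend 0.49). Depth per spot rose toward the same end. The median trends of these lists were -0.38 and 0.13 within bins of total UMIs.

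Endothelial genes fell toward the periportal end. In a spot, fewer cells of a type and less RNA per cell cannot be told apart. Of 14 sinusoidal and vascular genes 13 fell and 0 rose (median trend -0.73), against 14.6 and 13.8% of all genes, such as the scavenger receptor Stab1, at 85.8, 55.5 and 42.8 CPM in bins 1, 5 and 10 of MASH-1 and 83.9, 59.9 and 41.2 CPM in MASH-2 (trend -0.89). All 9 pericentral endothelial genes fell (median -2.14), and 4 had a bow with the middle below the ends, against 0.955% of all genes. The Wnt amplifier Rspo3 stood at 15.4, 10.7, 5.53 and 1.82 CPM in bins 1, 3, 5 and 10 of MASH-1 and 17.2, 13.5, 7.27 and 2.97 CPM in MASH-2 (trend -2.85), and the ligand Wnt2 at 9.06, 6.43, 4.11 and 1.57 and 9.85, 7.06, 5.45 and 0.868 CPM (trend -3.35). Vwf, the von Willebrand factor of larger vessels, dropped from 25.1 to 10.5 CPM between bins 1 and 2 of MASH-1 and from 49.5 to 21.3 CPM in MASH-2 (bow -1.08, SE 0.13). Of 7 periportal endothelial genes 3 rose, among them the Notch ligand Dll4 (1.29), and 0 fell, against 13.8 and 14.6%. The median of the pericentral endothelial list was -1.31 within bins of total UMIs.

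Bile duct genes rose at the periportal end, 9 of 10 against 13.8% of all genes, with a median trend of 1.75. The trefoil factor Tff3 stood at 4.30, 6.43, 13.2 and 31.9 CPM in bins 1, 5, 8 and 10 of MASH-1 and 2.81, 8.78, 9.73 and 19.7 CPM in MASH-2 (trend 2.35, SE 0.17). The claudin Cldn7 (2.44) rose as well, and the keratin Krt18, which hepatocytes also express, rose by 0.44. The summed level of the list went from 495 to 752 CPM between bins 1 and 10 of MASH-1 and from 614 to 1046 CPM in MASH-2, and most of this gain came from 1 member, Spp1 (from 34.7 to 198 and from 97.9 to 375 CPM).

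Macrophage lists differed in shape. Of 15 Kupffer cell genes 5 rose and 0 fell, against 13.8 and 14.6% of all genes, and 4 had a called bow with the middle above the ends, against 1.37%. Their median trend came to 0.56 (MASH-1) and -0.06 (MASH-2), and within bins of total UMIs it was -0.08 over both. Of 17 monocyte and macrophage genes 9 rose and 0 fell (median 0.44, and 0.13 within bins of total UMIs), such as the protease Ctss (0.44, not passing within bins of total UMIs, adjusted p = 0.113) and Ms4a7 (1.08). Of 11 lipid-associated macrophage genes, a list whose genes bile duct and other cells partly share, 7 rose and 1, the lipase Lpl, fell. Their median trend was 0.53, and 0.32 within bins of total UMIs. The summed level of this list was highest in bin 9 of both sections (289 and 492 CPM) and lowest in bin 3 of MASH-1 (186 CPM) and bin 5 of MASH-2 (331 CPM), where bins 1 and 10 held 353 and 381 CPM. Of 9 MHC class II genes 1 rose, of 9 T and NK cell genes 1 rose and of 6 B and plasma cell genes 1 rose, counts near the 13.8% of all genes that rose. The bins differed in any way for 3 of the 9 MHC class II genes, against 15.2% of all genes. The immunoglobulin chain Igkc went opposite ways, from 17.2 to 69.0 CPM in MASH-1 and from 220.0 to 61.7 CPM in MASH-2, and its trend did not pass (0.17, adjusted p = 0.864). The calprotectin gene S100a9 of the neutrophil list had a called bow (0.92) at 14.5 CPM or less in every bin quoted (3.40, 6.23, 4.11 and 2.06 CPM in bins 1, 3, 5 and 10 of MASH-1 and 5.91, 6.47, 14.5 and 3.97 CPM in MASH-2).

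Stellate cell and fibroblast genes split, 6 of 19 rising and 6 falling, against 13.8 and 14.6% of all genes. The proteoglycan Dcn (-0.53), the matrix protein Ecm1 (-0.73) and Reln (-0.71) fell, while the matrix Gla protein Mgp rose, from 3.17 to 10.6 CPM in MASH-1 and from 3.38 to 10.5 CPM in MASH-2 (trend 1.91). Of 22 collagen and matrix genes 3 rose, with fibronectin, Fn1, at 0.44 and the protease inhibitor Timp1 at 0.92, and 4 fell, with Postn at -1.19 and the galectin Lgals1 at -1.02; these counts lie near the 13.8 and 14.6% of all genes. Haemoglobin genes fell in 4 of 6 blood genes (Hba-a1 -1.07, Hbb-bs -0.86, near-identical copies among them), and within bins of total UMIs the median trend of the list was 0.43 with none of these 4 passing. Hba-a1 passed neither without MASH-1 (adjusted p = 0.53) nor without MASH-2 (0.538). Of 12 circadian genes 0 rose or fell, of 12 p53 and injury genes 1 rose and of 12 proliferation genes 1 rose. Against the same 13.8 and 14.6%, of 17 interferon genes 4 rose, and of 13 endoplasmic reticulum stress genes 8 rose and 2 fell, with the secretory chaperone Hspa5 at 0.33 and Herpud1 at 0.53. Of 11 hypoxia genes 3 fell, led by the oxygen sensor Egln3 (-1.32), and 1, Hif1a (0.37), rose. Of 16 haem and iron genes 7 rose and 4 fell, the rate-setting haem enzyme Alas1 at -0.86 and the iron carrier Trf at 0.44. Of 14 apolipoprotein and secretion genes 6 rose and 5 fell, and of 12 glycolysis and glycogen genes 8 rose and 1 fell.

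**Figure D4:**
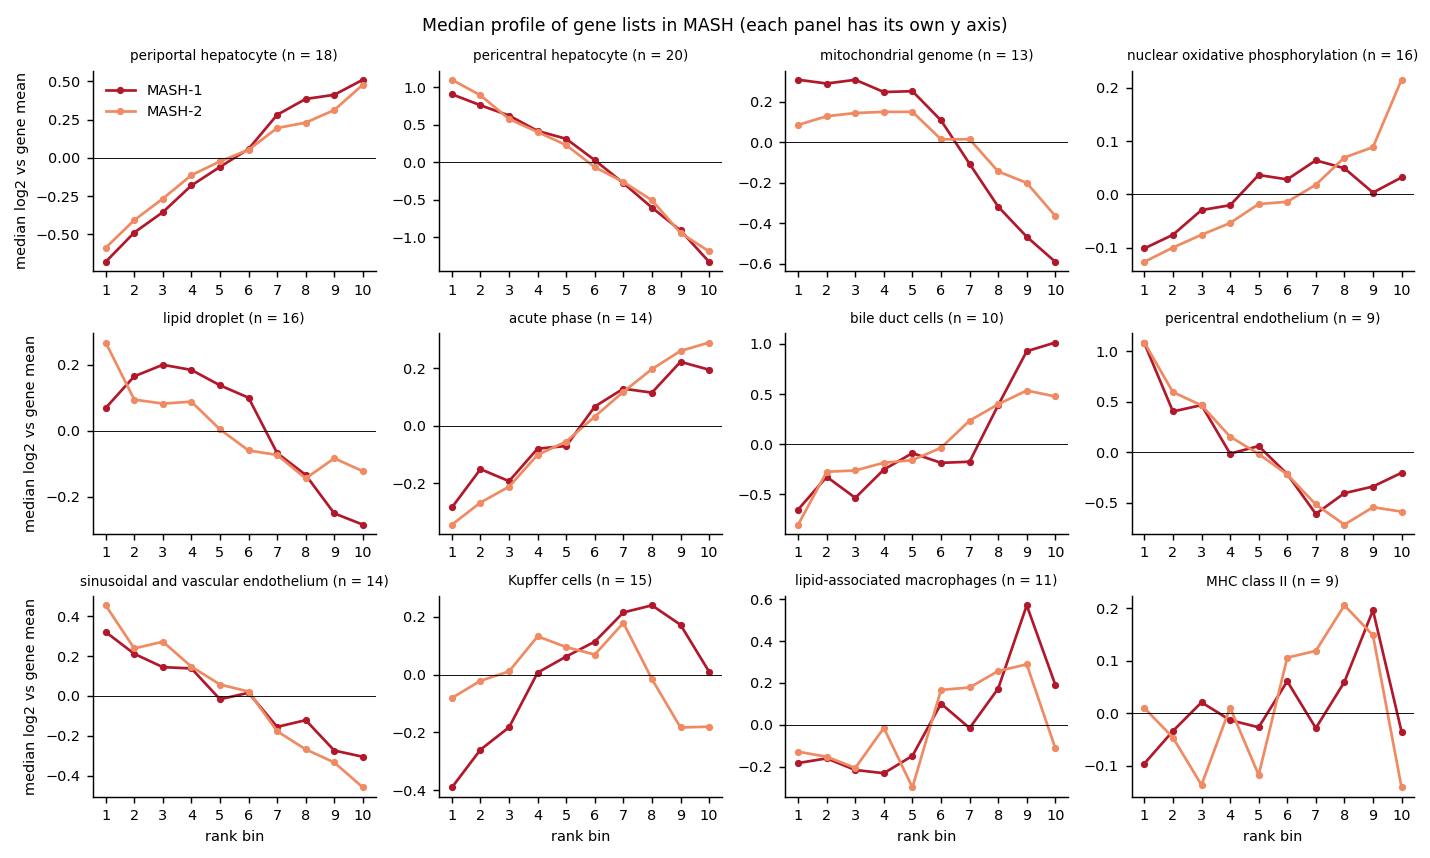
Median profile of 12 gene lists over 10 rank bins (x axis) in each MASH section (lines), as the median over a list's tested genes of log2(CPM + 1) minus the gene's own mean (y axis, scale differs between panels). The pericentral endothelium drops from 1.08 and 1.09 in bin 1, the mitochondrial genome holds to bin 5 and ends at -0.59 and -0.36, and the Kupffer cell list is at -0.39 and -0.08 in bin 1 and at 0.01 and -0.18 in bin 10.

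The title of the series names Mif, Thrsp, Cd74 and the periportal zone, and these genes had unlike profiles. The cytokine gene Mif was nearly level, at 291, 283, 277, 276 and 284 CPM in bins 1, 3, 5, 8 and 10 of MASH-1 and 267, 269, 255, 259.8 and 275 CPM in MASH-2. Its trend of -0.04 (SE 0.05, adjusted p = 0.544) did not pass and was 0.03 within bins of total UMIs. With library totals, which shifted the median of all genes to -0.09, it was -0.14 and passed (adjusted p = 0.00775). Thrsp, a gene known for promoting fat synthesis, was at 456, 459, 404, 269 and 324 CPM in MASH-1 and 676, 587, 483, 426 and 479 CPM in MASH-2. It fell toward the periportal end with a small regain in bin 10 of both sections (trend -0.73, SE 0.05, adjusted p = 1.6e-15). Cd74, which encodes a MIF receptor that also chaperones MHC class II, was at 215, 235, 246, 298 and 244 CPM in MASH-1 and 416, 363, 356, 466 and 372 CPM in MASH-2. Bin 8 was highest of these bins in both sections, and bin 10 of MASH-2 lay below bin 1. The trend of 0.23 (SE 0.05, adjusted p = 3.0e-04) did not pass with 1 value per section in limma (adjusted p = 0.144) or without MASH-1 (0.16, adjusted p = 0.318), and was -0.07 within bins of total UMIs (adjusted p = 0.388). The MIF co-receptor Cd44 rose by 0.45 (adjusted p = 0.00775), which did not pass without MASH-1 (0.29, adjusted p = 0.244) or within bins of total UMIs (0.28, adjusted p = 0.0785). The chemokine receptor Cxcr4, at 1.81 and 2.25 CPM in bin 1, had a trend of -0.40 (adjusted p = 0.448) that was 0.00 within bins of total UMIs.

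Spp1, a secreted phosphoprotein linked to lipid-associated macrophages and also made by bile duct cells, had a larger trend than any of the 11 genes of that macrophage list (highest 1.42). It stood at 34.7, 43.0, 97.2 and 198 CPM in bins 1, 5, 8 and 10 of MASH-1 and 97.9, 174, 364 and 375 CPM in MASH-2 (trend 2.45, SE 0.30, adjusted p = 1.3e-04). MASH-1 climbed after the middle, while MASH-2 climbed through all of these bins. Spp1 is itself 1 of the 10 bile duct genes above. Of the other 9 genes 8 rose, and the part of bile duct cells in its profile was not tested. Gpnmb, a glycoprotein of lipid-loaded macrophages, stood at 6.57, 8.93, 21.8 and 16.9 CPM in MASH-1 and 36.6, 24.5, 58.6 and 36.2 CPM in MASH-2, with bin 8 the highest of these in both. Its trend of 0.95 (SE 0.19, adjusted p = 0.00194; sections 1.64 and 0.59) was 0.48 within bins of total UMIs (adjusted p = 0.301). The lipid-sensing receptor Trem2, at 8.83, 7.68, 10.9 and 11.9 and 18.6, 12.4, 28.5 and 17.4 CPM, rose by 0.36 (SE 0.14, adjusted p = 0.041), and passed neither without MASH-1 (adjusted p = 0.0698) nor without MASH-2 (0.17), nor within bins of total UMIs (0.19, adjusted p = 0.39). The tetraspanins Cd63 (1.11) and Cd9 (0.84) and the integrin Itgax (1.06) rose too.

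The MASH profiles were then set against the same rank bins of the MAFL sections, in a fit of 40 sums that tested the difference of trends and bows. CPM in this comparison are scaled over all 40 sums and differ slightly from those above. The ranks covered unlike ranges of the score: its median ran from -3.25 to 1.80 and from -2.92 to 2.53 in the MASH sections, and from -2.04 to 2.40 and from -2.44 to 1.49 in the MAFL sections. Depth rose less in MAFL, from 15283.5 to 15974 and from 18649 to 24627 UMIs per spot. The part of either in the differences was not tested. Of 11181 genes tested 225 (2.01%) had a trend higher and 190 (1.7%) a trend lower in MASH than in MAFL, and 64 (0.572%) had a bow higher and 8 (0.0715%) a bow lower in MASH. With 1 value per section in limma 69 differences of trend were called, 63 of them shared. The count was 791 without MASH-1, 593 without MASH-2, 152 without MAFL-1 and 131 without MAFL-2, and that of bows 65, 289, 17 and 43. Of 18 periportal hepatocyte genes 10 had a higher trend in MASH and 1 a lower one, and of 20 pericentral ones 4 had a lower trend. Of 8 MHC class II genes tested here 2 had a lower trend in MASH and 0 a higher one.

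Of 14 acute phase genes 8 had a higher trend in MASH and 0 a lower one, against 2.01 and 1.7% of all genes. The acute phase protein Saa1 stood at 762, 765 and 662 CPM in bins 1, 5 and 10 of MAFL-1 and 1678, 1286 and 1169 CPM in MAFL-2, against 379.7, 492 and 646 CPM in MASH-1 and 473, 590.0 and 809.5 CPM in MASH-2. Its section trends were -0.07 and -0.62 in MAFL and 0.85 and 0.97 in MASH, a difference of 1.27 (SE 0.12, adjusted p = 7.4e-07). Saa2, a close copy that can share reads, had section trends of 0.25 and -0.71 in MAFL and 0.73 and 0.88 in MASH (difference 1.11). Its call was lost without MASH-1 (1.18, adjusted p = 0.0584) and without MASH-2 (1.05, adjusted p = 0.101). Serpina1e was more abundant in MAFL, with 5705, 7805 and 9226 CPM in MAFL-1 and 2528, 3113 and 3714 CPM in MAFL-2, against 497, 571 and 1988 and 175, 328 and 892 CPM in the MASH sections. On the log2 scale its slope was steeper in MASH (difference 1.32, SE 0.12), while relative to the mean on linear CPM the difference was -0.55. Gldc rose in both groups, by 1.16 and 1.08 in MAFL and 2.28 and 1.95 in MASH (difference 1.03, SE 0.10). On linear CPM, again relative to the mean over both groups, the difference was 0.21 and did not pass (adjusted p = 0.252).

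Lipid genes moved both ways. Lpl, which releases fatty acids from circulating fat, was lower in bin 10 than in bin 1 of every section, at 58.7, 24.3 and 17.9 CPM in bins 1, 5 and 10 of MAFL-1, 70.8, 38.7 and 23.8 CPM in MAFL-2, 55.0, 51.8 and 32.7 CPM in MASH-1 and 57.4, 49.5 and 36.4 CPM in MASH-2. The MASH profile was the flatter one (difference 1.21, SE 0.13, adjusted p = 7.8e-11). The droplet protein gene Cidec was low throughout MAFL, with 34.4, 19.3 and 28.1 and 13.1, 13.7 and 13.2 CPM, and graded in MASH, with 106, 97.8 and 33.3 and 132, 82.8 and 40.9 CPM (difference -1.50, SE 0.21, adjusted p = 3.3e-05). Of 16 lipid droplet genes 5 had a lower trend in MASH and 0 a higher one, against 1.7 and 2.01% of all genes. Thrsp stood at 31.8, 27.8 and 31.8 CPM in MAFL-1 and 143, 107 and 169 CPM in MAFL-2, with section trends of -0.12 and 0.12, against -0.84 and -0.61 in MASH (difference -0.78, SE 0.09, adjusted p = 1.8e-09). Both MASH trends of Thrsp lay below both MAFL trends. The trends of Mif and Cd74 did not differ past the threshold (differences 0.06 and -0.10, adjusted p = 0.76 and 0.754), though within bins of total UMIs that of Cd74 was -0.31 (adjusted p = 0.0197).

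Further pericentral genes steepened. Lhpp had trends of -3.00 and -2.90 in the MAFL and -4.15 and -4.28 in the MASH sections (difference -1.27, SE 0.14), and Gstm2 of -1.27 and -1.73 against -2.61 and -2.29 (difference -0.92). Within bins of total UMIs neither difference passed (-0.59, adjusted p = 0.147, and -0.41, adjusted p = 0.329). The steroid enzyme gene Hsd3b5 had trends of -2.19 and -1.76 in MAFL and -2.69 and -2.99 in MASH (difference -0.85). On linear CPM, relative to the mean over both groups, the difference was 0.93, and the level of each group enters it. Without MAFL-2 the difference on the log2 scale was smaller, at -0.59. The nuclear non-coding RNA Malat1 was nearly level in MAFL, at 199, 204 and 205 and 167, 156 and 144 CPM in bins 1, 5 and 10, and graded in MASH, at 187, 159 and 93.9 and 627, 566 and 208 CPM (difference -1.29, SE 0.12, adjusted p = 1.1e-07; -0.52 within bins of total UMIs).

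**Figure D5:**
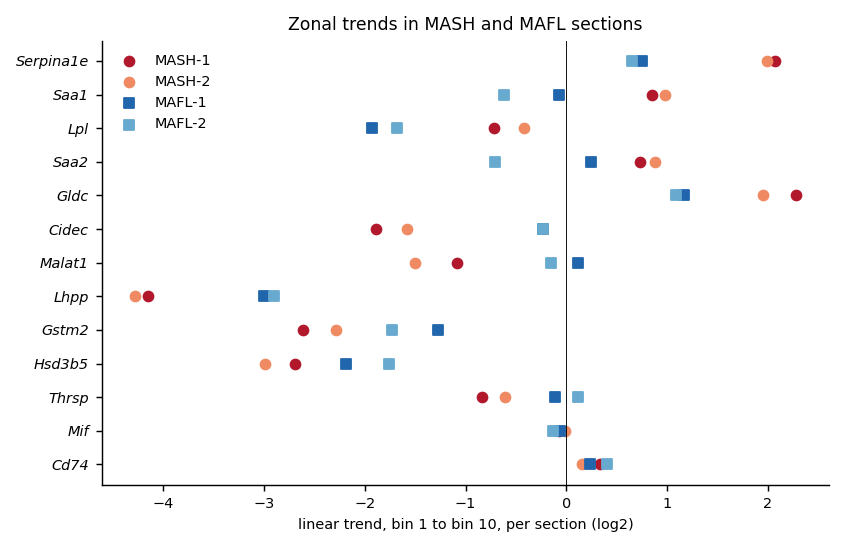
Linear trend from bin 1 to bin 10 (log2, x axis) of 13 genes (rows) in each section; circles are MASH sections and squares MAFL sections. The MASH and MAFL symbols stand apart for the first 11 genes (a condition for naming all of them but Thrsp) and lie close together for Mif and Cd74; Saa1 is at -0.07 and -0.62 in MAFL and at 0.85 and 0.97 in MASH.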

How the data were processed

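Gene expression was recorded by 10x Visium in 2 MASH and 2 MAFL sections. The deposited matrices hold raw UMI counts per spot and gene, which the file headers credit to Space Ranger 1.2.2 and the submitters' processing notes place on mm10; the filters used before deposit are not given in the sources used here. All 31253 features were read, 91 of which share a symbol with another. Spots under 500 UMIs were left out. UMIs were summed per section and rank bin (63808230 and 44581221 UMIs in MASH-1 and MASH-2), the 12 score genes were removed, and the 20 MASH sums were fitted with edgeR 4.0.16 (TMM, filterByExpr, quasi-likelihood test, Benjamini-Hochberg over all tested genes, threshold 0.05), with section as a block and bin as a factor. MASH and MAFL were compared in a fit of 40 sums. Each bin sum holds spots of 1 section, so residual error is the disagreement of sections over bins. Alternatives used limma 3.58.1 and DESeq2 1.42.0 under R 4.3.3; sums and figures used Python 3.11.15. The fits were also run on simulated counts drawn independently for each bin. Such counts cannot show how dependence between the bins of a section affects the calls.

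Named genes had a mean of at least 20 CPM, a called term and the same sign in both MASH sections, leaving out score genes, predicted genes, sex-linked genes, and Mup, haemoglobin, ribosomal and mitochondrial ones. They were the 10 highest and 10 lowest trends, the 8 highest middle maxima and 6 lowest middle minima, up to 4 bowed gradients of each kind with a trend of at least 1 in size, and the 5 highest and 5 lowest differences between MASH and MAFL with sections that do not overlap. The genes of the title and of lipid-associated macrophages and up to 4 members of each list, by smallest p, were added whatever their call. Members and lists were chosen with earlier results of these data known. Spot positions and images were not used. Spots are not cells, doublets were not called, and how reads shared by near-identical genes were counted is not given in the sources used here.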

Additional observations from a re-analysis of the deposited data

Results flagged for a closer look

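The trend from bin 1 to bin 10 differed between MASH and MAFL for 11 named genes, by a test of the difference itself (edgeR's quasi-likelihood test over 11181 genes, 2 sections per group). It was higher in MASH by 1.32 for Serpina1e, 1.27 for Saa1, 1.21 for Lpl, 1.11 for Saa2 and 1.03 for Gldc on the log2 scale. It was lower in MASH for Cidec (-1.50), Malat1 (-1.29), Lhpp (-1.27), Gstm2 (-0.92), Hsd3b5 (-0.85) and Thrsp (-0.78). All but Thrsp were named on condition that the sections of the groups do not overlap, so that separation is no support. Rank bins, depth per spot, model and weeks of diet differed between the groups together, and their parts cannot be told apart.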

How the results depend on the processing

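With 1 value per section in limma there were 1981 called trends (930 rising, 1051 falling) and 69 differences of trend between MASH and MAFL. At a mean of at least 20 CPM there were 2056 trends (984 rising, 1072 falling) and 1177 genes that differed in any way, over fewer tested genes. With library totals 1015 trends rose. Called bows numbered 166 by DESeq2 (107 above, 59 below), 63 within bins of total UMIs (45 and 18), 167 with a mean z-score as the score (101 and 66) and 91 with 5 bins (64 and 27), and on linear CPM 56 lay above. Ranking within bins of total UMIs left 1080 genes that differed in any way, and 175 differences of trend and 17 of bow were called. With 5 bins the differences were 165 and 21, with the z-score 41 bows differed, and on linear CPM 44. The cause of these shifts was not tested.

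Leaving out a section gave 2528 to 2951 trends (1277 to 1461 rising, 1251 to 1490 falling), 307 to 518 bows (153 to 345 above, 154 to 173 below), 1661 to 1845 genes differing in any way, and 131 to 791 trends and 17 to 289 bows that differed between groups. A lone section's spread was taken from the other group.

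Trends that turned within bins of total UMIs were those of Mif (0.032), Cd74 (-0.067), Cxcr4 (0.0035), Igfbp2 (-0.18), Cd163 (-0.0145), Hba-a2 (0.35), Hba-a1 (0.41), Hbb-bt (0.45) and Hbb-bs (0.45), and bows those of Selenbp2 (8.5e-06) and Alb (0.0317). On linear CPM the bow of Cidea (-0.14) and the differences of Serpina1e (-0.55), Hsd3b5 (0.93) and Cd74 (0.16) turned. These differences are relative to a gene's mean over both groups, so levels that differ between groups enter them. The difference of Mif was -0.0189 with library totals, and that of Cd74 0.0174 without MAFL-2. Of the other gene trends 2365 comparisons kept direction and side of the threshold, 106 lost the call and 1 gained it (Mif with library totals, -0.14). Of gene bows 367 comparisons kept both and 78 lost the call, and of gene differences 221 and 7. Of the median trends of 41 lists, 20 moved within bins of total UMIs by more than the SD of the 2 sections' medians, and 21 did not. Among the 20, periportal hepatocyte genes went from 1.07 to 0.76 and pericentral ones from -2.35 to -1.94. Cytochrome P450 and conjugation genes went from -1.47 to -1.07, acute phase genes from 0.56 to 0.36, and haem and iron genes from 0.19 to -0.05.

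With the replicate block, pairing sections of equal number, 383 trends and 77 bows differed between MASH and MAFL, against 415 and 72 without it. The linear trends of equal-numbered sections, as deviations from their group mean, had a correlation of -0.0044 over 11181 genes. This covers trends alone and cannot show whether such sections share a slide or batch.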
